A study of Mus musculus with 2 samples.

Results

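Capillary endothelial cells line the smallest vessels of skeletal muscle, where blood exchanges gas, water and nutrients with the fibres. In muscle they are marked by the machinery that brings fat out of the blood: GPIHBP1 holds lipoprotein lipase at the vessel wall, CD36 takes up fatty acids, and the fatty acid-binding proteins FABP4 and FABP5 carry them inside the cell. They adjoin arterial cells, which need Notch signalling and carry Dll4, Hey1 and Gja5, and venous cells, which let leukocytes through and carry Ackr1, Selp and Vwf.

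Here they were the cells of a single-cell RNA-seq data set that met a rule on detected genes. A cell was taken when Cdh5, Pecam1 and at least 1 of Gpihbp1 and Cd36 were detected and Ptprc and Pdgfra were not. It could show at most 1 gene from each of 4 groups, which were mural (Kcnj8, Abcc9, Notch3, Higd1b), lymphatic (Prox1, Mmrn1, Ccl21a), arterial (Gja5, Sema3g, Dll4, Hey1) and venous (Ackr1, Selp, Sele, Lrg1). The rule found 1938 of 13432 cells. The cells were thus chosen by the values of these genes, whose levels are given as a description.

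The tissue was mouse gastrocnemius 14 days after injury by cardiotoxin (CTX), a toxin that destroys muscle fibres. WT C57BL/6J mice were compared with mice in which Gsdme, a pore-forming gasdermin that can be cleaved to cause pyroptosis, was knocked out in all cells (KO). Both groups were male, both received CTX and neither library came from uninjured muscle; 5 mice per genotype were used, and whether their cells were pooled is not stated. Each genotype gave 1 library, made with a 10x Genomics kit for 5′ RNA ends, so no difference between genotypes below could be set against replicate error and none was tested. Intervals are 95% intervals and cover counting error alone.

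The WT library held 990 capillary cells among 6354 cells, a share of 15.6% (exact binomial interval 14.7 to 16.5). The KO library held 948 among 7078 cells, a share of 13.4% (12.6 to 14.2). The difference was -2.19 percentage points (-3.39 to -0.985), and after every cell had been thinned to 1000 UMIs (unique molecular identifiers, which count RNA molecules) it was -1.15 points, with an interval from -2.37 to 0.0658. Such a share also moves with the yield of other cells from the tissue. The capillary cells held 5185824 UMIs in WT and 4727298 in KO, with a median per cell of 3814 and 3430 UMIs and of 1790 and 1718 genes. They were shallower than the arterial cells, whose median was 6809 UMIs in WT and 6740 in KO. The libraries shared 4 cell barcodes.

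Most capillary cells carried both genes of the rule's lipid pair. In WT, 875 of the 990 had Gpihbp1 and Cd36, 28 had Gpihbp1 alone and 87 had Cd36 alone. In KO, the numbers were 825, 26 and 97 of 948. Cells with 1 of the pair were shallow, with medians of 1118 to 1274 UMIs against 4241 in WT and 3981 in KO for cells with both. Just outside the rule lay 20 WT and 15 KO cells that met every other term but had neither gene, and their median depth was 1170 and 862 UMIs.

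Markers that the rule did not use set these cells apart from FAPs, but only in part from arterial and venous cells. Levels here are UMIs per 1000000 UMIs of the cells concerned (CPM). Fabp4 stood at 17019 CPM in WT and 16564 in KO and was detected in 99.8% and 99.5% of the capillary cells. In FAPs (fibro-adipogenic progenitors, the fibroblast-like cells of muscle) it stood at 49.9 and 44.8. Aqp1, a water channel, stood at 4714 in WT and 4698 in KO, against 21.8 and 13.4 in FAPs. Both genes thus stood far above FAPs in each library. Other blood endothelial cells shared them: Fabp4 stood at 14877 and 14834 in arterial and at 20588 and 19214 in venous cells, and Aqp1 at 1951 and 2785 in arterial and at 3492 and 3788 in venous cells. The apelin receptor gene Aplnr stood at 184 and 232, and was found in 36.8% and 46.9% of the cells. Tcf15, a transcription factor of capillary cells in muscle and heart, stood at 711 and 565, against 670 and 551 in arterial cells. Timp4, an inhibitor of matrix metalloproteinases, stood at 702 and 406, against 475 and 316 in arterial cells. These genes separated the capillary cells less from arterial cells than from FAPs. Lyve1, a lymphatic marker, was at 3.28 and 0.846 against 1728 and 2054 in lymphatic endothelial cells. Bmx, an arterial kinase gene, had no UMI in capillary cells of either library, with an exact upper bound of 0.711 CPM in WT and 0.780 in KO.

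**Figure D1:**
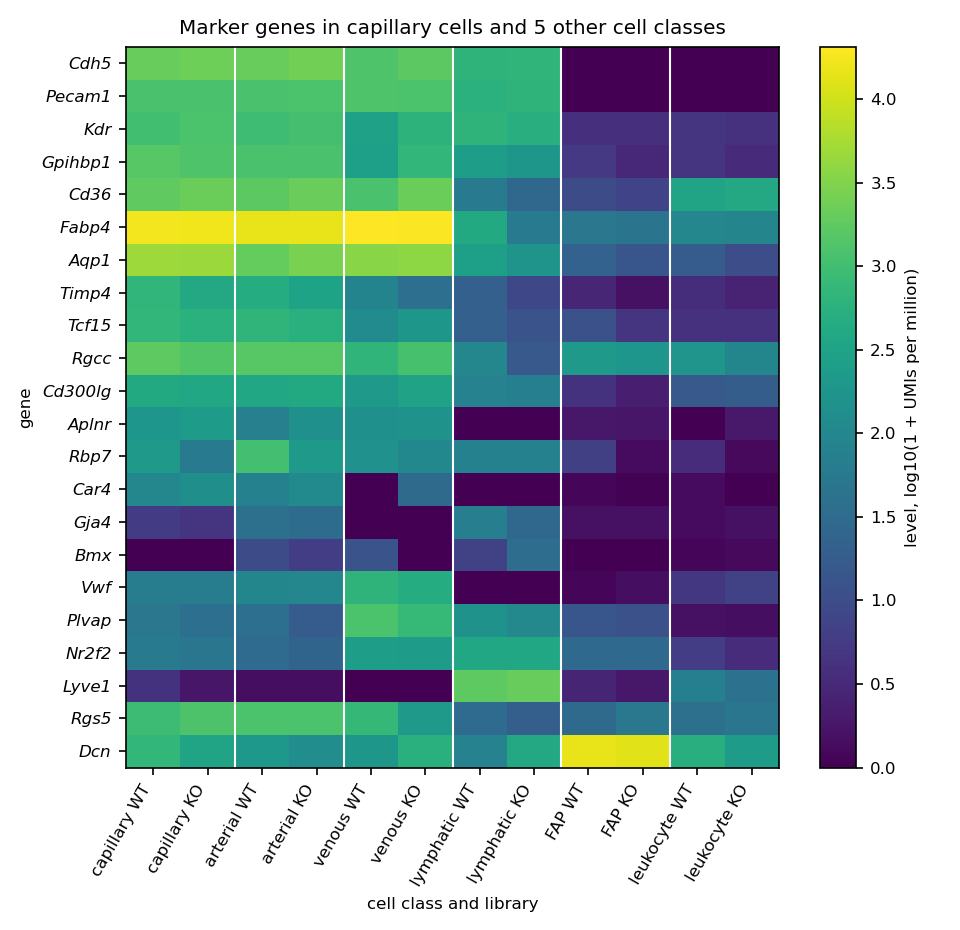
Levels of 22 marker genes (rows) in capillary cells and 5 other cell classes of the WT and KO libraries (columns), with colour for log10 of 1 plus CPM. Fabp4 stood at 17019 (WT) and 16564 (KO) CPM in capillary cells and at 49.9 and 44.8 in FAPs.

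The limit of 1 arterial gene did much of the sorting. In WT, 530 of the 990 capillary cells (53.5%) showed 1 arterial gene, and in KO 506 of 948 (53.4%). That gene was Dll4, a Notch ligand, in 454 of the 530 WT and 431 of the 506 KO cells. Dll4 thus had a UMI in 45.9% of WT and 45.5% of KO capillary cells, while every other gene of the limited groups was found in at most 5.70% of them. In WT, 158 cells were kept out only because they showed exactly 2 arterial genes, and in KO 174. Levels on each side of the limit are given as a description. Cells that showed more of these genes were also deeper: the median in WT was 2948 UMIs for the 446 capillary cells with no arterial or venous gene, 4706 for the 515 with 1 arterial gene, 5817 for the 158 just outside and 9316 for the 98 with 3 or 4.

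Aqp1 was lower at each step towards the arterial side. In WT it stood at 5360 CPM with no arterial gene, 4463 with 1, 2659 with 2 and 1104 with 3 or 4. In KO the levels were 4900, 4606, 3399 and 1629. As a ratio, the step between 1 and 2 arterial genes, the limit of the rule, was no sharper than the next one. In CPM it was larger than the next one in WT and smaller in KO. Aplnr followed the same order, at 220, 166, 103 and 41.1 in WT and 317, 195, 160 and 113 in KO. Gja4, a connexin of arterial cells, went the other way, at 2.93, 5.50, 13.2 and 65.1 in WT and 2.13, 4.12, 13.0 and 50.6 in KO. Rbp7, which encodes a retinol-binding protein, was given with the capillary markers but was arterial in its levels: 175, 215, 710 and 1506 in WT and 48.4, 61.9, 130 and 386 in KO. In WT it was found in 27.2% of capillary and 77.5% of arterial cells, so in these data it marked arterial cells more than capillary ones.

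**Figure D2:**
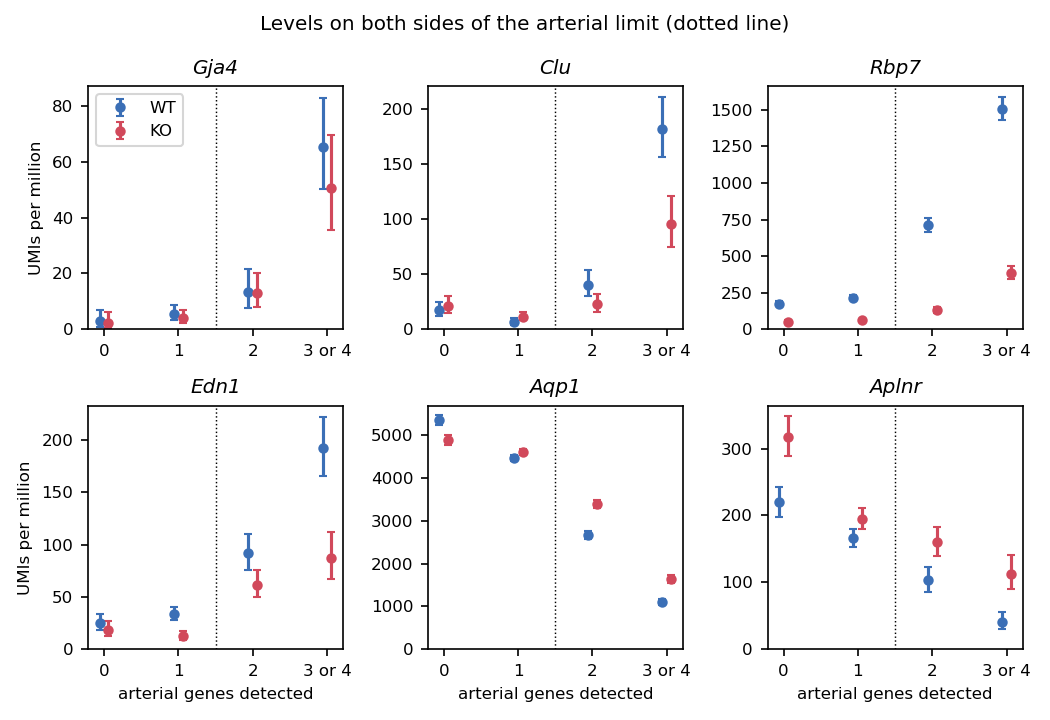
Levels of Gja4, Clu, Rbp7, Edn1, Aqp1 and Aplnr (CPM, bars for exact Poisson 95% intervals) in WT and KO cells with 0, 1, 2, and 3 or 4 detected arterial genes; cells right of the dotted line were outside the capillary rule. From 0 to 3 or 4 arterial genes, Aqp1 went from 5360 to 1104 in WT and from 4900 to 1629 in KO, and Gja4 from 2.93 to 65.1 and from 2.13 to 50.6.

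Capillary cells differed from the 258 arterial cells of each library in both directions. Arterial cells were those with at least 2 arterial genes, so the contrast rests on the rule and is described only. Genes are given here as capillary over arterial levels, with the rule's own genes left out. Gja4 stood at 4.63 CPM in capillary against 37.5 in arterial cells in WT (log2 ratio -3.02) and at 3.60 against 33.0 in KO (-3.20). Fbln5, an elastic-fibre protein gene of arteries, stood at 25.3 against 189 in WT and at 23.9 against 105 in KO. Clu, which encodes the extracellular chaperone clusterin, stood at 14.7 against 111 in WT and at 14.4 against 75.8 in KO. These genes of the artery wall were all low in capillary cells of both libraries. They were picked by the weaker of the bounds in both libraries, so this agreement was built in. Edn1, the vasoconstrictor endothelin 1, stood at 31.6 against 137 in WT and at 14.2 against 91.2 in KO. Gkn3, an arterial marker, had 0 UMIs in capillary and 49 in arterial cells of WT, and 2 and 25 in KO. On the capillary side were Aqp1 (log2 1.27 in WT and 0.75 in KO), Aplnr (1.30 and 0.70) and Samd5 (1.78 and 1.36). Ptx3, a secreted pattern-recognition protein gene, stood at 16.0 against 1.35 in WT and 18.8 against 0.903 in KO, with only 3 and 2 arterial UMIs behind it. Col1a1, Col1a2, Dcn, Serpinf1, Mfap4 and Thbs4, genes of fibroblasts or tendon cells, were also higher in capillary than in arterial cells. In WT, 10 capillary cells held 82.7% of the Col1a1, 80.8% of the Col1a2 and 69.7% of the Dcn UMIs. In KO the shares were 70.3%, 64.7% and 63.3%. Dcn was detected in 44.2% of capillary and 43.4% of arterial cells in WT.

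Against the venous cells, 23 in WT and 17 in KO, the capillary cells held less of several genes, as well as more of others. Plvap, which forms the diaphragms of fenestrae and caveolae, stood at 49.9 against 1241 in WT and at 36.0 against 787 in KO. Vwf, the clotting factor von Willebrand factor, stood at 64.8 against 644 and at 64.1 against 468. Slco2a1, a prostaglandin transporter, stood at 5.79 against 171 and at 2.75 against 104. Plvap and Slco2a1 were picked by the weaker of the bounds in both libraries, so their shared direction was built in. Vwf, which was not picked that way, also had the same direction in both. On the capillary side, Timp4 stood at 702 against 88.6 in WT and at 406 against 37.1 in KO, and Tcf15 at 711 against 118 and at 565 against 193. Among the capillary cells themselves, the 14 WT and 17 KO cells with 1 venous gene and no arterial gene held Plvap at 1678 and 229 CPM, against 56.8 and 43.4 in those with neither.

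Gsdme itself did not mark the knockout in these libraries. In capillary cells it had 9 UMIs in 9 cells of WT and 9 UMIs in 9 cells of KO, or 1.74 and 1.90 CPM. Over all cells it had 225 UMIs in WT (5.03 CPM, 4.39 to 5.73) and 237 in KO (4.65, 4.08 to 5.29). Which part of the gene the KO allele lacks is not given in the sources used here, and reads of 5′ RNA ends outside it would check nothing, so the libraries are named below by their labels.

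With each gene's UMIs summed over the capillary cells, 8087 genes had at least 100 UMIs over both libraries. A ratio of at least 1.5-fold was taken as past the fold. In the library labelled KO, 248 of these genes (3.07%) were past it upwards and 279 (3.45%) downwards, and the median log2 ratio, KO over WT, was 0.03. Several of the largest ratios rested on very few cells. Of the 248 higher genes, 23 (9.27%) had over 50% of their KO UMIs in 10 cells, and of the 279 lower genes 57 (20.4%) had over 50% of their WT UMIs in 10 cells, against 164 (2.03%) of all genes in WT. Inhba, which encodes an activin subunit, had 11 UMIs in WT and 99 in KO, with 98 of the 99 in 1 cell, a log2 ratio of 3.30. Gal, a neuropeptide gene, had 31 and 167, with 72 in 1 KO cell. The mast cell gene Mcpt4 had 111 and 6, with 93 in 1 WT cell. The haemoglobin genes Hbb-bs, Hbb-bt, Hba-a1 and Hba-a2 were 1.43 to 1.81 higher on the log2 scale with 95.6% to 98.1% of their UMIs in 10 cells. The tendon and cartilage matrix genes Fmod, Tnmd, Comp, Chad, Kera, Angptl7, Cilp2 and Ecrg4 were all lower in the KO library, with 92.3% to 100% of their WT UMIs in 10 cells.

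**Figure D3:**
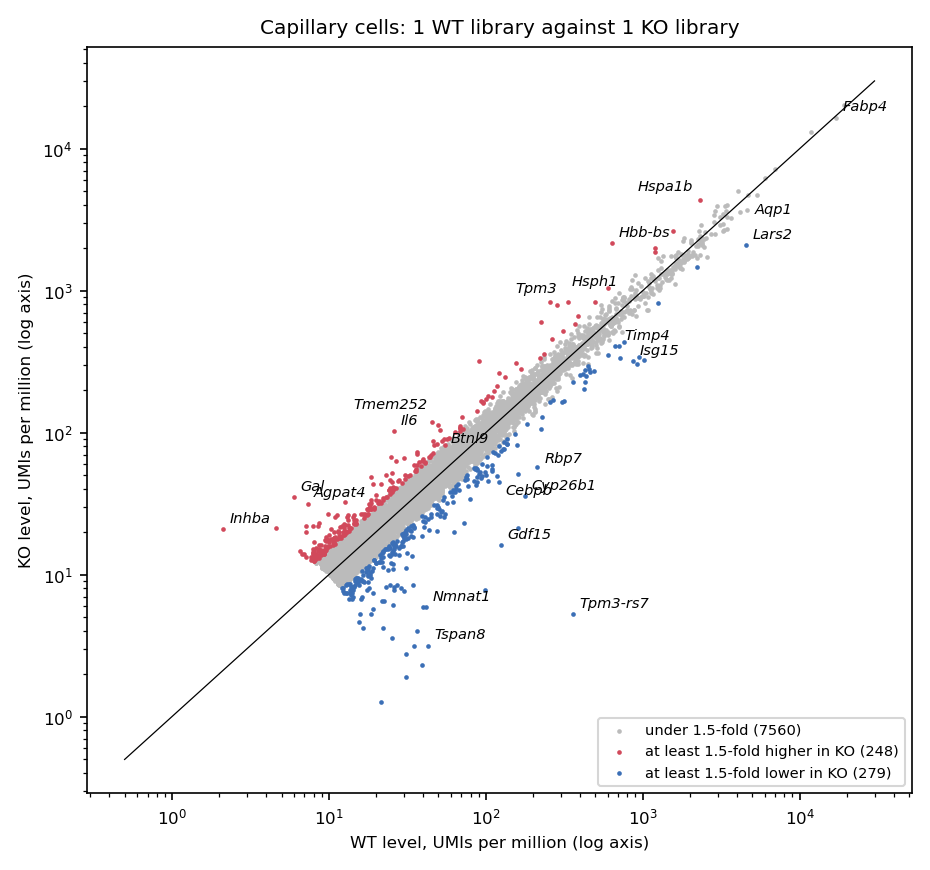
Level in capillary cells of the WT library (horizontal) against the KO library (vertical), both in CPM on log axes, for the 8087 genes with at least 100 UMIs, with the line of equal levels. The 248 genes at least 1.5-fold higher in KO are red, the 279 at least 1.5-fold lower are blue, and the others are grey.

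Among genes spread over many cells, Il6 was the one most clearly higher in the library labelled KO. This inflammatory cytokine had 135 UMIs in 69 capillary cells of WT and 487 UMIs in 164 of KO, or 26.0 and 103 CPM, a log2 ratio of 1.98 (1.71 to 2.27). With the limits on the 4 gene groups dropped, so that arterial, venous and mural cells also entered, the ratio was 0.94. With each cell thinned to 1000 UMIs, 1.98% of WT and 7.20% of KO capillary cells had an Il6 UMI, against 2.33% and 5.07% of leukocytes, which also make it. Osmr, a receptor chain for oncostatin M, stood at 118 and 214 CPM (0.85). Birc3, an inhibitor of apoptosis and target of NF-κB, stood at 36.6 and 72.6 (0.99).

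Further genes that were higher in KO across many cells had separate roles. Tmem252, a membrane protein gene, stood at 45.5 in WT and 119 in KO (1.39, 1.16 to 1.61), in 94 and 153 cells. Outside the endothelium it was nearly absent, at 0.371 and 1.09 CPM in FAPs. Btnl9, a butyrophilin-like gene of capillary and arterial cells, stood at 49.4 and 114 (1.21, 0.99 to 1.43). Kit, the receptor for stem cell factor, stood at 36.3 and 70.9 (0.97). Abcc4, an exporter of cyclic nucleotides and organic anions, stood at 19.1 and 43.4 (1.18), and Cldn12, a claudin, at 7.13 and 22.2 (1.64). Agpat4, an enzyme of phospholipid synthesis, stood at 7.33 and 31.7 (2.11, 1.59 to 2.67) and Mid1, a ubiquitin ligase, at 4.63 and 21.2 (2.19, 1.54 to 2.90). Pttg1, securin of the cell cycle, stood at 24.9 and 67.3 (1.44). The growth factor Bmp2 stood at 30.3 and 66.6 (1.14), though 10 cells held 54.8% of its WT and 52.7% of its KO UMIs.

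Tpm3, a tropomyosin, stood at 286 and 788 (1.46) and its near-identical copy Tpm3-rs7 at 361 and 5.29 (-6.09). Counting could split reads between these copies, so both values are uncertain. The same opposite pair was seen in every other class compared, with Tpm3-rs7 between -5.17 and -5.55.

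The lower genes included several that mark endothelium by place. Rbp7 had 1094 UMIs in 269 capillary cells of WT and 269 UMIs in 126 of KO, or 211 and 56.9 CPM, a log2 ratio of -1.89 (-2.09 to -1.70). It was lower at every number of arterial genes, as the levels by arterial gene count show, and at 1067 and 213 in arterial cells. Cyp26b1, which breaks down retinoic acid, stood at 178 in WT and 35.7 in KO (-2.31, -2.56 to -2.07), in 283 and 120 cells. Timp4 stood at 702 and 406 (-0.79, -0.87 to -0.71). Tspan8, a tetraspanin, had 223 UMIs in 159 WT cells and 15 UMIs in 13 KO cells (-3.76, -4.62 to -3.01). In arterial cells Tspan8 stood at 84.4 and 4.06, and in FAPs at 0.0928 and 0.0644.

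Nmnat1, a nuclear enzyme of NAD synthesis, stood at 41.8 and 5.92 (-2.82, -3.44 to -2.25) and was between -2.65 and -3.59 in arterial cells, FAPs and leukocytes. Annotated start regions are given as a description: Nmnat1 at GRCm38.p6 chr4:149485161-149485460, Rbp7 at chr4:149454919-149455218 and Gsdme at chr6:50261720-50262019, each on the minus strand. What made Nmnat1 and Rbp7 differ between the libraries was not tested. Rbp7 was also lower in FAPs, at 5.57 and 0.322, and in leukocytes, at 2.49 and 0.282, where its level was low throughout. Lars2, the leucyl-tRNA synthetase of mitochondria, stood at 4573 and 2093 (-1.13) and was lower in those classes too, by log2 ratios of -1.37 to -1.64. Genes such as Nmnat1, Lars2 and Tpm3-rs7 thus differed between the libraries in every class, capillary cells included.

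Gdf15, a stress-induced cytokine of the TGF-β family, stood at 126 and 16.1 (-2.97), with 81 of its 651 WT UMIs in 1 cell. Cebpb, a transcription factor of the acute-phase response, stood at 161 and 51.2 (-1.66, -1.87 to -1.45). Smad7, the inhibitor that TGF-β and BMP signalling induce, stood at 304 and 164 (-0.89), and Id1, a direct BMP target, at 669 and 410 (-0.71). With Gdf15 and Smad6, which turned to 0.15 in thinned cells, these made 4 of 20 tested genes of the BMP and TGF-β list lower (20.0%, beside 3.45% of all genes), and Bmp2 made 1 higher. The list's median log2 ratio was -0.10.

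Most markers of capillary identity differed little between the libraries. Of 14 tested, Gpihbp1 and Cd36 of the rule among them, Rbp7 and Timp4 were past 1.5-fold lower (14.3%, beside 3.45% of all genes) and none higher. The median, which Gpihbp1 and Cd36 enter, was -0.07 beside 0.03 for all genes. Fabp4 had -0.04 and Aqp1 0.00. Gpihbp1 (-0.22) and Cd36 (0.30) were used to choose the cells, so their ratios say nothing about identity. Of 24 general endothelial genes none was past 1.5-fold in either direction. Among these, the VEGF receptors Kdr and Flt1 stood at 1030 and 1751 CPM in WT and at 1228 and 1813 in KO. Of 32 genes of fatty acid uptake and lipid handling 1 was past 1.5-fold, the lipoprotein receptor Lrp1, which was lower (39.7 and 23.9, -0.73, but 0.07 without cells that showed more than 4 genes of other cell types). Lpl, the lipase that GPIHBP1 holds, stood at 548 and 436 (-0.33), Pparg, the nuclear receptor that drives fat storage genes, at 66.7 and 47.2 (-0.50), and Fabp5 at 1037 and 823 (-0.33). The lipid list's median was -0.04.

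Heat-shock chaperone genes stood higher in the library labelled KO. Of 21 tested, 6 were past 1.5-fold higher (28.6%, beside 3.07% of all genes) and none lower, 19 had a ratio above 0, and the median was 0.39. Hsph1, a nucleotide exchange factor for HSP70, stood at 333 in WT and 828 in KO (1.31, 1.23 to 1.40). Hspa1b, an inducible HSP70, stood at 2328 and 4383 (0.91), and its neighbouring near-copy Hspa1a at 2989 and 3943 (0.40). Reads of these copies can be split between them. Hspd1 and Hspe1, the mitochondrial chaperonin and its partner, stood at 156 and 309 (0.98) and at 310 and 516 (0.74), and Dnaja1, a DNAJ co-chaperone, at 1556 and 2644 (0.76). Cryab, a small heat-shock protein gene, stood at 39.0 and 63.0 (0.69), with 80.5% of its KO UMIs in 10 cells, and its direction turned under 6 alternatives, for example to -0.55 without the deepest 5% of cells. With cells thinned to 1000 UMIs, 3 of 19 heat-shock genes were past 1.5-fold higher, with a median of 0.18. Hspd1 (0.56) and Hspe1 (0.43) were then within 1.5-fold. Hspe1 was also within it without the deepest 5% of cells (0.40), and Dnaja1 with each cell weighted equally (0.48). Hspa1b was detected in 749 of 990 WT and 705 of 948 KO cells. The KO UMIs of Hspa1b and Hsph1 sat more in a few cells, since 10 cells held 8.38% of the Hspa1b UMIs in WT and 18.6% in KO, and 13.0% and 22.2% of those of Hsph1.

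Heat-shock promoters can carry inverted repeats that bind heat-shock factor. The letters GAANNTTCNNGAA or TTCNNGAANNTTC, the same site read on opposite strands, were searched in RefSeq promoters that run from 250 bases before the start to 50 after it. They were found in 198 of 32851 promoters (0.603%) and in those of 4 of the 18 listed heat-shock genes with a promoter, which were Chordc1, Hspd1, Hspe1 and Hsph1. Those of Hsph1 (GRCm38.p6 chr5:149636266-149636565, minus strand) and Hspe1 (chr1:55087898-55088197, plus strand, a promoter region shared with Hspd1, with 2 overlapping matches) are shown. Both genes were past 1.5-fold over all capillary cells, though Hspe1 was not in thinned cells (0.43). Capitals mark the match.
Hsph1: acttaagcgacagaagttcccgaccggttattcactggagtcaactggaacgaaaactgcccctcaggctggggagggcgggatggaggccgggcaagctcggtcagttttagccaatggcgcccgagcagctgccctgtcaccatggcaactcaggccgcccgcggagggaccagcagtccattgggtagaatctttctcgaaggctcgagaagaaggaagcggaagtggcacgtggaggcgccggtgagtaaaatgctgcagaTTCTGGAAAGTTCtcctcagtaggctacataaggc
Hspe1: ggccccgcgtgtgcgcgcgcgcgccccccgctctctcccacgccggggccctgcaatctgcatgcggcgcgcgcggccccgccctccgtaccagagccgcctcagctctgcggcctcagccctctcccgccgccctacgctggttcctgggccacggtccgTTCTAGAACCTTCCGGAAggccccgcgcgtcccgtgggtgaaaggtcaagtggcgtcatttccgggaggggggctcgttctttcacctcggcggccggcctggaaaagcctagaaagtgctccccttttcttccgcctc

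Interferon-response genes stood lower in the library labelled KO. Of 29 tested, 7 were past 1.5-fold lower (24.1%, beside 3.45% of all genes) and none higher, 2 had a ratio above 0, and the median was -0.30. Under a stricter rule, with both Gpihbp1 and Cd36 and no gene of the 4 limited groups, 3 of 26 were lower. Isg15, a ubiquitin-like modifier, had 4492 UMIs in 633 WT cells and 1516 UMIs in 434 KO cells, or 866 and 321 CPM (-1.43, -1.52 to -1.35). At 1000 UMIs per cell, 41.9% of WT and 19.9% of KO capillary cells had an Isg15 UMI. The antiviral genes Ifit3 and Ifit1 stood at 104 and 45.7 (-1.19) and at 396 and 253 (-0.65), and Rsad2, which encodes viperin, at 315 and 168 (-0.90). Usp18, which removes ISG15 from proteins, stood at 50.3 and 29.2 (-0.79). Igtp, an interferon-induced GTPase, stood at 128 and 77.2 (-0.73). Other members, among them abundant ones, were within 1.5-fold: Ifitm3 stood at 3280 and 2661 (-0.30) and Iigp1 at 1642 and 1796 (0.13). Cxcl10, an interferon-induced chemokine of the inflammatory list, stood at 251 and 290 (0.21).

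The response element of these genes, searched as TTTCNNTTTC or GAAANNGAAA on either strand, was found in 1131 of 32851 promoters (3.44%) and in 15 of the 24 listed interferon genes with a promoter. Those of Isg15 (GRCm38.p6 chr4:156200769-156201068, minus strand, with 3 matches) and Ifit3 (chr19:34583279-34583578, plus strand, with 2 matches) are shown because their genes had the lowest ratios in the list. Capitals mark the matches.
Isg15: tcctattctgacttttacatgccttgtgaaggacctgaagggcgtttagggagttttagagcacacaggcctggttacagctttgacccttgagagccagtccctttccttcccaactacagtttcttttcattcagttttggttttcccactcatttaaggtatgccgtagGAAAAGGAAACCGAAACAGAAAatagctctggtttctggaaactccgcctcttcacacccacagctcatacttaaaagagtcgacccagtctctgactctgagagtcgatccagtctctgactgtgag
Ifit3: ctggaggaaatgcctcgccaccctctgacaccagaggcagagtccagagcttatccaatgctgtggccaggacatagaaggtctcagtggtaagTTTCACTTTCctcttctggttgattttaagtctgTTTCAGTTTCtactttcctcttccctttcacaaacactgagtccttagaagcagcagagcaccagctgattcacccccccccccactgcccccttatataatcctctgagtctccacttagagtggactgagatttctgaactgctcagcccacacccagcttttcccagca

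Signals to and from the blood split by gene. Of 31 inflammatory genes 5 (16.1%, beside 3.07% of all genes) were past 1.5-fold higher (Il6, Birc3, Ccl7, Tnfaip3 and Cx3cl1), none was lower, and the median was 0.21. Tnfaip3, a brake on NF-κB, stood at 39.9 and 65.6 (0.72) and Cx3cl1, the chemokine fractalkine, had 57 and 84 UMIs (0.69), but both were within 1.5-fold (0.45 and 0.51) without cells that showed more than 4 genes of other cell types, while the adhesion genes Icam1 (287 and 261) and Vcam1 (21.8 and 16.5) were within 1.5-fold. Of 17 flow-responsive and vasoactive genes 5 (29.4%, beside 3.45% of all genes) were lower and Kcnj2, a potassium channel, was higher. Klf4, induced by laminar flow, stood at 2208 and 1460 (-0.60), while Klf2, induced by the same flow, stood at 2046 and 2167 (0.08). Edn1 stood at 31.6 and 14.2 (-1.16), but had -0.12 under the stricter rule. Among 30 genes of VEGF, apelin and tip cells, Ets2 was higher (370 and 586). Adm, Pgf, Vegfa and Ramp3 were lower (13.3%, beside 3.45% of all genes). Adm, the vasodilator adrenomedullin, stood at 225 and 106 (-1.08, but -0.49 without cells that showed more than 4 genes of other cell types) and Vegfa, the main endothelial growth factor, at 61.9 and 32.6 (-0.93). The endothelial nitric oxide synthase gene Nos3 stood at 170 and 179 (0.08), and the tip-cell gene Apln at 76.2 and 98.8 (0.38).

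The immediate-early list went both ways. Of 36 genes, Fosl2, Zfp36 and Btg2 were past 1.5-fold higher (8.33%, beside 3.07% of all genes). Cebpb, Fosl1 and Klf4 were past it lower (8.33%, beside 3.45%), and the list's median was 0.17. Zfp36, which destabilises cytokine mRNA, stood at 1200 and 2008 (0.74). Among the glucocorticoid-response genes, 3 of 14 (21.4%, beside 3.45% of all genes) were lower (Fkbp5, Zbtb16 and Ddit4) and none higher. Under the looser rule, without limits on the 4 groups, Fkbp5 (-0.53) and Ddit4 (-0.57) were within 1.5-fold, as was Fkbp5 (-0.53) in thinned cells. Of 15 clotting and fibrinolysis genes, the thrombin receptor F2r was higher (43.2 and 67.7), but had 0.39 in thinned cells. Plau, Anxa2 and S100a10, which act in plasmin formation, were lower (20.0%, beside 3.45% of all genes). Anxa2 (-0.57) was within 1.5-fold under the looser rule and S100a10 (-0.44) under the stricter rule. Plau, the urokinase gene, stood at 44.9 and 26.9 (-0.74, but 0.22 under the stricter rule). Among 20 genes of antigen presentation, the MHC class II genes H2-Ab1 (20.1 and 33.8) and H2-Aa (24.3 and 39.8) were higher (10.0%, beside 3.07% of all genes). Cd274, which encodes PD-L1, was lower (119 and 69.2). Of the H2-Ab1 UMIs, 54.8% in WT and 52.5% in KO lay in 10 cells.

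In 74 nuclear genes of oxidative phosphorylation the ratios were small and mostly below 0. A ratio above 0 was found for 7, the median was -0.14, and Uqcrq, a subunit of complex III, was the only one past 1.5-fold (431 and 228, -0.92). Of 27 genes of glycolysis and hypoxia 3 (11.1%, beside 3.45% of all genes) were lower (Adm, Vegfa and Ankrd37), with a median of -0.15. Of 19 basement membrane genes Col18a1 was higher (13.3 and 26.2). The abundant Col4a1 stood at 3389 and 3631 (0.10). Of 24 junction and barrier genes 1 was lower, the trafficking gene Ehd4. Of 13 cell-cycle genes, Top2a (44 and 105 UMIs) and Mki67 (45 and 72 UMIs) were higher (15.4%, beside 3.07% of all genes), in 16 and 11 KO cells. Without cells that showed more than 4 genes of other cell types, Top2a was lower (-3.60). The pyroptosis axis had 8 tested genes. Casp4, the inflammatory caspase that cleaves gasdermin D, stood at 54.6 and 89.7 (0.72, 0.50 to 0.94). It was the only one past 1.5-fold (12.5%, beside 3.07% of all genes), but had 0.31 without cells that showed more than 4 genes of other cell types. Gsdmd stood at 20.2 and 18.6 (-0.12). In the angiocrine list of 20, Il6 was higher and Ccn2 and Hbegf were lower (10.0%, beside 3.45% of all genes). Of 19 solute transport genes 1, Abcc4, was higher.

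**Figure D4:**
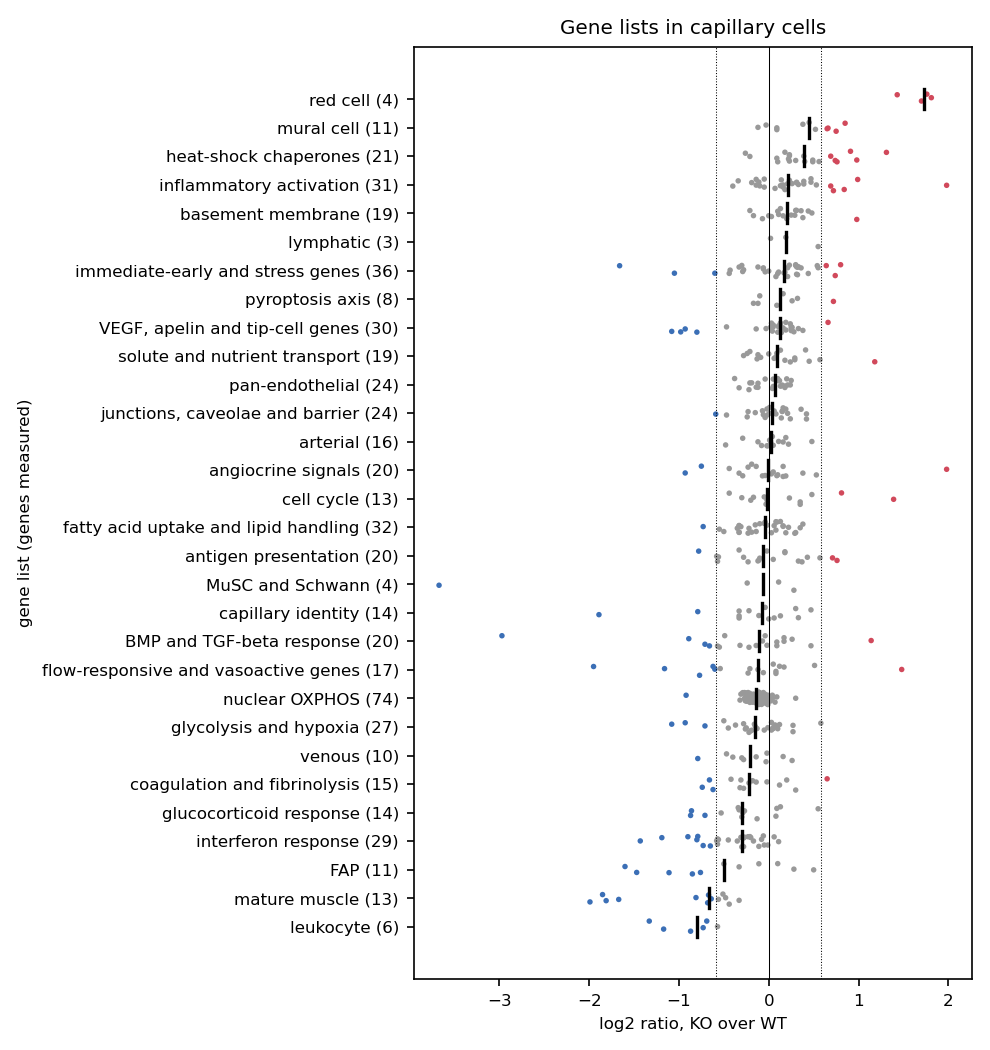
Log2 ratio, KO over WT, in capillary cells for each tested gene of 30 gene lists (points, coloured where past the dotted lines at 1.5-fold) with each list's median (bar). The heat-shock median was 0.39 and the interferon median -0.30, beside 0.03 for all 8087 genes.

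RNA of other cell types was present in capillary cells and differed between the libraries. The 6 FAP markers summed to 2536 CPM in WT and 1529 in KO, with Pdgfra at 0 by the rule, and 10 cells held 60.5% and 62.8% of it. The 7 leukocyte markers summed to 115 and 66.6, with Ptprc (0 by the rule) and Cd3e at 0. The 5 muscle markers summed to 368 and 237, with none at 0 and a range of 28.9 to 121 in WT and 8.04 to 82.1 in KO. The 6 mural markers summed to 936 and 1344, of which Rgs5 made 897 and 1288. The rule limited Kcnj8, Abcc9, Notch3 and Higd1b among them. The 4 red-cell genes summed to 1208 and 3902. The lymphatic markers, of which the rule limited Prox1, Mmrn1 and Ccl21a, summed to 67.5 and 78.5. Of 11 tested genes of the mural list, 4 were past 1.5-fold higher (36.4%, beside 3.07% of all genes) and none lower, with a median of 0.45. These were Notch3, Steap4, Myh11 and Abcc9, of which the rule limited Notch3 and Abcc9. FAP, leukocyte and muscle RNA was thus lower, and red-cell and mural RNA higher, in the library labelled KO. Their part in other results was not tested, but 53 WT and 56 KO cells in which such markers held at least 1% of UMIs were left out in a repeat. Without these cells 5 heat-shock genes were higher and 9 interferon genes lower. The count of lower FAP genes went from 5 of 11 to 1 of 10, Dcn moved from -1.11 to 0.00, and 5 of 13 muscle genes were lower in place of 8. The median of the leukocyte list was -0.80 over 6 genes and 0.52 over the 3 genes that still had enough UMIs.

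Several of these differences were seen in other cells of the same libraries as well. Others had the opposite sign in at least 1 other class, among them Gal, Ccl11, Abcc4 and the medians of several lists. The mural, mature muscle, basement membrane and VEGF lists were among these. Il6 had log2 ratios of 1.98 in capillary cells, 1.59 in arterial cells, 1.81 in FAPs and 1.53 in leukocytes. Isg15 had -1.43, -1.49, -1.74 and -0.55. Dnaja1 had 0.76, 0.72, 1.12 and 0.60. Cebpb had -1.66, -1.68, -1.55 and -1.31. These genes therefore differed in 1 direction in all 4 classes. Of the heat-shock list, 5 of 20 genes were past 1.5-fold higher and 1 lower in arterial cells (beside 4.45% and 4.15% of all genes), 13 of 22 higher in FAPs (2.95%) and 9 of 21 in leukocytes (3.96%). Of the interferon list, 9 of 28 were lower in arterial cells, 11 of 29 in FAPs (5.08%) and, with 2 higher, 5 of 28 in leukocytes (4.96%). Cyp26b1 had -2.31 in capillary and -2.00 in arterial cells and -0.85 in FAPs, where it stood at 17.3 and 9.60. Abcc4 had 1.18 in capillary cells, 0.50 in arterial cells and -0.23 in FAPs. No difference between classes was tested.

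**Figure D5:**
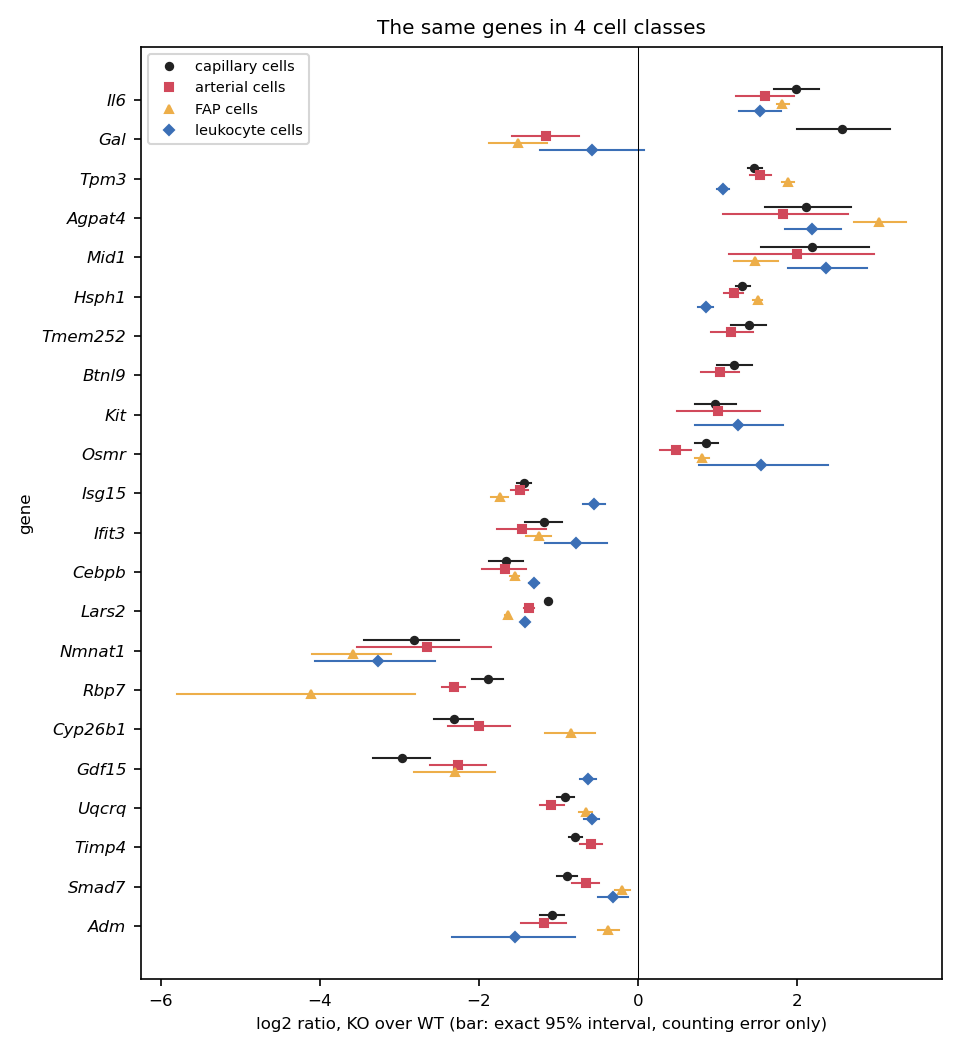
Log2 ratio, KO over WT, of 22 genes in capillary cells, arterial cells, FAPs and leukocytes, with exact 95% intervals as bars; classes with too few UMIs of a gene are left out. Il6 lay between 1.53 and 1.98 and Cebpb between -1.68 and -1.31 in the 4 classes.

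Variation among the capillary cells was measured within each library. After thinning to 1000 UMIs, 3276 genes had a mean of at least 0.05 UMI, and the median of their variance over mean was 1.06 in WT and 1.06 in KO. At such low means this measure can lie near 1 even where cells differ, so it does not show how alike the cells were. Of the 12 most variable genes, Hbb-bs, Hba-a2, Hba-a1, Hbb-bt, Mbp, Col1a1 and Col1a2 had most of their UMIs in 10 cells. Malat1 (10.9 and 7.71), a nuclear long RNA, and Fabp4 (6.18 and 6.31) were spread over many cells instead. For a given relative spread this measure rises with the mean, so abundant genes rank high. The means were 14.7 and 15.3 UMIs for Malat1 and 16.5 and 17.4 for Fabp4, so their rank does not show a large relative spread. Rgs5, a pericyte gene, had 5.91 and 11.9. The inducible chaperones Hspa1a (5.41 and 8.18) and Hspa1b (5.37 and 9.08) completed the set. Their Pearson correlation across cells was 0.69 in 907 WT and 0.78 in 875 KO cells. Reads of these near-copies can be split between them, so that value alone does not show that both genes varied together. Hspa1a with Hsp90aa1, another chaperone gene, had 0.62 and 0.64, and Egr1 with Fos had 0.59 and 0.62. Hspa1a with Jun had 0.43 and 0.51. Haemoglobin genes were tied to neither: Hbb-bs with Hspa1a had -0.03 and 0.03. Cells of 1 library share their preparation, and these correlations are descriptions.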

How the data were processed

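Cells of injured mouse gastrocnemius, from 1 WT and 1 KO library, were profiled by single-cell RNA-seq. Per the study's methods, the authors aligned reads with Cell Ranger 7.0.1 and used Seurat 4.3.0, and removed doublets with DoubletFinder 2.0.4 and cells with more than 10% mitochondrial RNA before deposit. The submitters' processing notes name Cell Ranger 2.1.1 and mm10, so the version is uncertain. No doublet caller was run here. The deposited values are the natural log of 1 plus UMIs per 10000 UMIs of the cell, as the authors normalized them, for 19169 genes in 13432 cells, without mt- genes. Undoing the log and dividing by the value of 1 UMI gave whole UMIs (largest distance from a whole number 0.247). The number after the barcode gave the library, as the series' design text states.

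UMIs were summed over the capillary cells of each library and given as CPM with exact Poisson 95% intervals. Log2 ratios had exact (Clopper-Pearson) intervals of the share of UMIs. With 1 library per genotype there was no test. The study's tests over cells were not used. A gene counted as past the fold at 1.5-fold with at least 100 UMIs over both libraries. The floor for rare genes was set at 3 UMIs, which is below the exact upper bound of a count of 0. Depth ran from 432 to 33871 UMIs per capillary cell in WT and from 457 to 39436 in KO. For shares of cells, cells were thinned to 1000 UMIs, which left out 83 WT and 73 KO capillary cells. Arterial, venous and lymphatic cells met the same base with at least 2 genes of their own group and at most 1 of each other. FAPs and leukocytes, added as comparison classes after the data had been seen, had neither Cdh5 nor Pecam1 detected and showed Pdgfra (FAPs) or Ptprc (leukocytes) but not both.

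The members and gene lists were chosen with earlier results of these data known. Named were the 15 genes per direction whose interval bound nearest to 0 was farthest from 0. Against arterial and venous cells, 10 per direction were picked by the weaker of these bounds in both libraries. The 12 most variable genes were picked by the library where the measure was lower. Members of the lists and set markers were named as well. Some genes are not reported here. Alternatives were another scaling, thinning, depth limits, stricter and looser rules, other minimums, and leaving out cells with RNA of other cell types. The summing and counting were tested on simulated data. Promoters came from RefSeq (GRCm38.p6). Python 3.11.15, numpy 2.4.6, scipy 1.17.1 and matplotlib 3.10.9 were used.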

Additional observations from a re-analysis of the deposited data

Results flagged for a closer look

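Among the 15 genes per direction named for the libraries, and among lists with at least 3 tested genes in both classes, 2 genes and 1 list were past 1.5-fold one way in capillary cells and past it the opposite way in arterial cells, FAPs or leukocytes. Smaller differences of direction were not counted, and none of these differences was tested, since each class had 1 library per genotype. Gal, the galanin gene, had a log2 ratio, KO over WT, of 2.56 in capillary cells, -1.16 in arterial cells and -1.51 in FAPs. In capillary cells 72 of its 167 KO UMIs lay in 1 cell. The mature muscle list had a median of -0.67 in capillary cells, where 8 of 13 genes were past 1.5-fold lower and none higher, and of 1.69 in FAPs, where 10 of 12 were higher and 1 lower. In arterial cells its median was -0.74 and in leukocytes -0.39. Ccl11, the chemokine eotaxin, had 1.41 in capillary cells and -1.22 in leukocytes, and 87.1% of its UMIs in KO capillary cells lay in 10 cells.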

How the results depend on the processing

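Of 108 named genes, 94 were past 1.5-fold, and 39 of these stayed past it the same way under every alternative, among them Il6 (0.94 to 2.67), Cyp26b1 (-2.37 to -2.14), Rbp7 (-1.96 to -1.72) and Isg15 (-1.59 to -1.35). Of 966 values under the alternatives, 618 stayed within the counting interval and 21, from 13 genes, turned direction. The cause was not tested for any of them. The 248 higher and 279 lower genes became 109 and 111 with cells thinned to 1000 UMIs (3272 genes left), 132 and 134 without cells that showed more than 4 genes of other cell types (3709 genes left), 600 and 614 with a minimum of 30 UMIs, and 95 and 116 with a minimum of 300 UMIs. The higher genes became 421 with each cell weighted equally, and the lower genes 177 under the stricter rule. The heat-shock genes past 1.5-fold higher were 3 in place of 6 after thinning, under the stricter rule and without cells that showed more than 4 genes of other cell types. The lower interferon genes were 11 in place of 7 with the median of ratios set to 0 and 3 under the stricter rule.

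Directions turned as follows. Without cells in which markers of another type held 1% of UMIs, the median of the leukocyte list was 0.52 (3 genes in place of 6), Inhba had -0.88, Chad 0.12, Angptl7 0.71, Ctsh 0.50 and Cryab -0.19. Without cells that showed more than 4 genes of other types, Gal had -1.66, Ccl11 -0.08, Ramp3 0.14, Ptgs2 0.11, Top2a -3.60 and Lrp1 0.07. Under the looser rule Gal had -0.04, Top2a -0.17 and Cryab -0.68, and under the stricter rule Plau had 0.22 and Cryab -1.08. After thinning, Smad6 had 0.15, Ptgs2 0.40 and Cryab -0.53. Cryab had -0.55 without the deepest 5% of cells and -0.06 with each cell weighted equally. Of the endothelial cells alone, the capillary share was 3.43 points lower in KO (-3.43). Against arterial cells, Aqp1 had 1.41 in WT and 0.94 in KO with each cell weighted equally, and 1.40 and 0.95 after thinning, and Gja4 had -1.23 in WT after thinning. Against venous cells, Plvap had -4.82 in KO with each cell weighted equally and -5.16 after thinning. The alternative on cells with 1% of UMIs in markers of another type was chosen after seeing the data.

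No paired analysis was possible because each genotype has 1 library, and for the same reason there was no replicate to leave out. A difference between the libraries cannot be told apart from one between genotypes. Depth limits rare genes: 3 UMIs are worth 0.579 CPM in WT and 0.635 in KO.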
